A study of Mus musculus with 2 samples.

Results

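A set of 10 genes of the p53 response and of cell cycle arrest was examined in cultured sinusoidal endothelial cells of mouse liver (LSEC), which form the porous wall between blood and hepatocytes. They were chosen by gene name, with earlier results of these data known, and are the cyclin-dependent kinase (CDK) inhibitors Cdkn1a, Cdkn1b, Cdkn2a, Cdkn2b and Cdkn2c and the p53 target genes Mdm2, Ccng1, Phlda3, Trp53inp1 and Gdf15. These 10 genes are carried by 15 probes, out of 39423 probes compared, and all 10 were measured on both arrays (14 of their 15 probes), as were 18143 of 31894 named genes. The ob/ob cells came from 1 obese mouse of a strain that lacks functional leptin, the wild-type (WT) cells from 1 WT mouse. Both mice were male and 8 weeks old, and in both cases the cells were released with collagenase and cultured overnight in medium with serum before RNA extraction. The sources do not say what share of the cultured cells was endothelial. Each RNA was hybridised to 1 single-colour Agilent array, so no difference below has a replicate check, no test was possible and no p-value is given.

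The transcription factor p53 is stabilised by DNA damage and other stresses and switches on genes that halt the cell cycle, repair DNA or trigger cell death, as well as its own inhibitor Mdm2. Cells halt in G1 through CDK inhibitors: the CIP/KIP proteins, which bind CDK2 complexes, and the INK4 proteins, which bind CDK4 and CDK6 and thereby keep the retinoblastoma protein active.

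Signals are given as scaled signals, the processed intensity of a spot divided by the 75th percentile of its own array (intensities of 1430 on the ob/ob and 989 on the WT array). Differences are ob/ob minus WT on the log2 scale, and a gene is represented by its brightest probe. A difference of at least 1, or 2-fold, is counted as higher or lower. The scanner's own error model gave an SD of 0.20 for the difference of a gene (median over 18143 genes), which holds no spread between mice or cell preparations. Across all genes measured on both arrays, 5.83% were at least 2-fold higher, 2.29% at least 2-fold lower, and the median difference was -0.12. These counts, 1057 higher and 415 lower, depended on the scaling: dividing by each array's median signal gave 768 higher and 976 lower, normexp background correction gave 369 higher and 3828 lower before the 75th percentile but 511 higher and 130 lower before quantile normalization, and unscaled signals gave 2222 higher and 102 lower.

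Of the 10 genes, 4 were at least 2-fold lower in ob/ob LSEC, 0 reached 2-fold in the other direction and 6 lay between, against 2.29% lower and 5.83% higher among all genes. The count of 4 was 1, Cdkn2a, under 5 of 10 other settings, in which 0.717% to 21.1% of all genes were lower, and 0 without scaling, with 0.562% of all genes lower. The 21.1% was found with normexp and the 75th percentile, where 1 of 10 genes is below the share of all genes. The 4 were Cdkn2a, Gdf15, Cdkn2b and Phlda3. The median over the 10 genes was -0.84, with a range of -1.46 to 0.60. Phlda3 at -1.05, Cdkn2b at -1.07 and Gdf15 at -1.09 just passed the 2-fold limit. Trp53inp1 at -0.97 just missed it, and all of these lay within 1 error-model SD of the limit. The 5 p53 targets other than Cdkn1a had negative differences, from -1.09 to -0.53, as did 62.7% of all genes. Cdkn1a, a p53 target counted here with the CDK inhibitors, differed by -0.005 and was positive under 7 of 10 other settings. Because the RNA is from bulk cells, fewer cells of a type and less RNA per cell cannot be told apart.

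**Figure D1:**
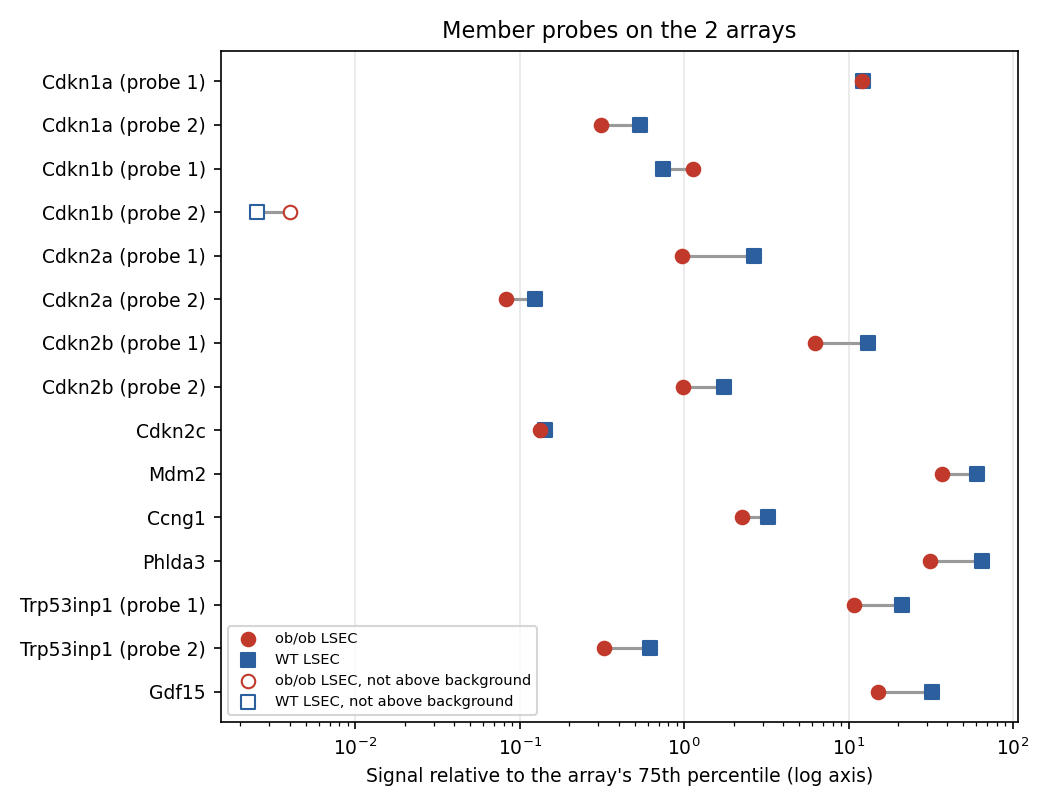
Scaled signal (log axis, relative to the 75th percentile of its array) of each of the 15 probes in ob/ob LSEC (red circles) and WT LSEC (blue squares), 1 array each; open symbols mark the probe that was not well above background. The ob/ob signal lies left of the WT signal for 13 of the 14 measured probes, although for Cdkn1a probe 1 the symbols coincide.

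The lowest value among the 10 genes was that of an INK4 gene. Cdkn2a encodes p16Ink4a and, from another first exon and reading frame, p19Arf, which restrains Mdm2. Its brighter probe (chromosome 4, 88920405 to 88920464, mm9, minus strand) had a scaled signal of 0.972 in ob/ob and 2.68 in WT cells, a difference of -1.46 or 2.76-fold lower. A second Cdkn2a probe, 138 bases away on the same chromosome, had scaled signals of 0.0825 and 0.125 in ob/ob and WT cells, a difference of -0.59. Both were lower in ob/ob cells, but they differed from each other by 0.87, more than the error-model SD of 0.20 and 0.21 for the probes. The array's annotation assigns both probes to the transcripts of both proteins, so the values do not separate p16Ink4a from p19Arf. The first 30 bases of each 60-base Cdkn2a probe are shown because the size of the Cdkn2a difference rests on which of them is read.
Cdkn2a brighter probe: ggcatgagaaactgagcgaaggcggccgcg
Cdkn2a dimmer probe: cttctagcgatgctagcgtgtctagcatgt

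Cdkn2b, the neighbour of Cdkn2a, encodes p15Ink4b, an INK4 inhibitor that TGF-beta is known to induce. Its brighter probe lies 31871 bases from that of Cdkn2a (chromosome 4, 88952276 to 88952335, mm9) and had scaled signals of 6.26 in ob/ob and 13.1 in WT cells, a difference of -1.07. The second Cdkn2b probe gave 0.986 in ob/ob and 1.74 in WT cells, a difference of -0.82. The Cdkn2b probes thus differed by 0.25 from each other, and both were lower in ob/ob cells. Cdkn2c, which encodes p18Ink4c and lies elsewhere on chromosome 4 (109333508 to 109333567), had scaled signals of 0.133 in ob/ob and 0.142 in WT cells. Its difference of -0.09 was smaller than its error-model SD of 0.21, and its sign was positive under 2 of 10 other settings.

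Neither CIP/KIP gene among the 10 was 2-fold different. Cdkn1b encodes p27Kip1, an inhibitor whose level is known to be set largely by protein breakdown. It was the only one of the 10 genes with a positive difference, with scaled signals of 1.13 in ob/ob and 0.748 in WT cells and a difference of 0.60 or 1.52-fold (chromosome 6, 134875424 to 134875483, mm9). A second Cdkn1b probe, 1818 bases away, stayed below the background limit on each array and gives no difference. Among all genes, 9.82% were at least 1.5-fold higher.

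Cdkn1a encodes p21Cip1, the best known arrest gene among p53 targets. Its main probe (chromosome 17, 29237377 to 29237436, mm9), which the array's annotation assigns to both RefSeq transcripts, was printed 10 times. The 10 spots of the ob/ob array gave scaled signals from 11.3 to 12.5 with a median of 12.3, and the 8 spots kept on the WT array gave 11.7 to 12.6 with a median of 12.2. The ranges overlap, the difference of the means was -0.005 (-0.40 to 0.53 under other settings, negative in 3 of 10), and the SD over spots was 0.05 on the ob/ob and 0.03 on the WT array on the log2 scale. This is the only one of the 15 probes with repeated spots.

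A second Cdkn1a probe lies 9391 bases upstream (chromosome 17, 29227986 to 29228045, mm9) and is assigned only to transcript variant 2, at its base 55. It had scaled signals of 0.310 in ob/ob and 0.539 in WT cells, a difference of -0.80, with 1 spot on each array. The Cdkn1a probes therefore differed by 0.79. The p53 targets below had differences from -1.09 to -0.53. The first 30 of the 60 bases are shown for both, since one is assigned to both RefSeq transcripts and the other to the variant alone.
Cdkn1a common probe: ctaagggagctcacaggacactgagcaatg
Cdkn1a variant 2 probe: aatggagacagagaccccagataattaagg

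**Figure D2:**
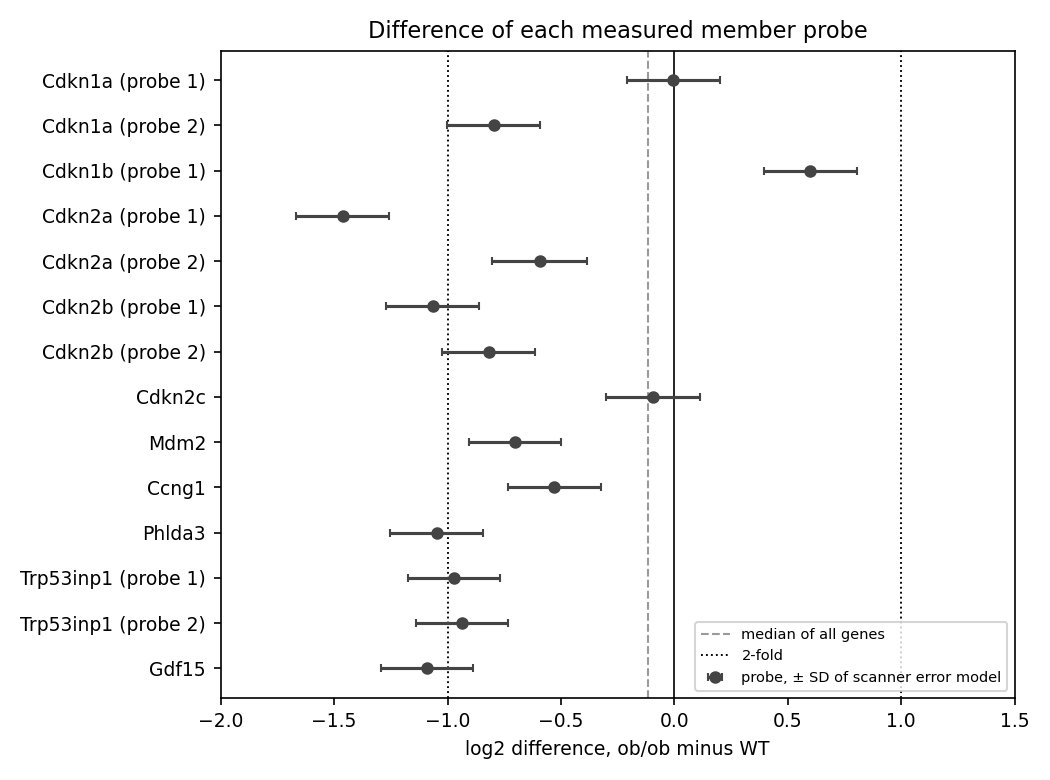
Log2 difference, ob/ob minus WT, of each of the 14 measured probes; bars are 1 SD of the scanner error model, dotted lines mark 2-fold and the dashed line the all-gene median of -0.12. The p53 targets other than Cdkn1a sit between -1.09 and -0.53, and Cdkn1b alone lies above 0. The 2 probes of Cdkn1a and of Cdkn2a are 0.79 and 0.87 apart.

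Promoter sequences were set beside these values because the p53 targets other than Cdkn1a had differences of like sign. In RefSeq promoters (GRCm38.p6), 9 of the 10 genes (all but Trp53inp1) had 13 entries, and the 250 bases before each start were searched for the 10-base p53 consensus element, which reads the same on both strands. The element was present in 7.13% of all 32851 promoters and in 3 of the 13 entries, which belong to Cdkn1a, Mdm2 and Ccng1. A pair of elements separated by at most 13 bases, the arrangement that a p53 tetramer binds, was present in 0.0639% of all promoters (21 of 32851) and in 1 of the 13, the upstream start of Cdkn1a. There the elements begin 73 and 51 bases before the start and are 12 bases apart. The second Cdkn1a start, and the windows of Cdkn1b, Cdkn2a, Cdkn2b, Cdkn2c, Phlda3 and Gdf15, had no match to these letters. A match describes the sequence only. Bases beyond these windows and elements with a mismatch were not searched. A window without a match therefore does not show that p53 sites are absent. The 3 promoters with a match are printed 5′ to 3′ with the elements in capitals.
Cdkn1a upstream start, plus strand, chr17:29090729-29090978: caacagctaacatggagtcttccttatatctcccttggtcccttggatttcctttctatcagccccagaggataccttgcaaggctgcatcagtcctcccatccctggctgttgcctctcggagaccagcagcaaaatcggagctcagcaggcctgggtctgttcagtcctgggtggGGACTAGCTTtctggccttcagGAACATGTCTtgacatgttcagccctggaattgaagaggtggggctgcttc
Mdm2, minus strand, chr10:117710759-117711008: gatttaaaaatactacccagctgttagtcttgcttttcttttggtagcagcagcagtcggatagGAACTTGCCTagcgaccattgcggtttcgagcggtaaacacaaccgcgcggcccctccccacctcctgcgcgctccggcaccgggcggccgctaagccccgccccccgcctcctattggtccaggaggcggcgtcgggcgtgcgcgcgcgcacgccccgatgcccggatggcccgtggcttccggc
Ccng1, minus strand, chr11:40755287-40755536: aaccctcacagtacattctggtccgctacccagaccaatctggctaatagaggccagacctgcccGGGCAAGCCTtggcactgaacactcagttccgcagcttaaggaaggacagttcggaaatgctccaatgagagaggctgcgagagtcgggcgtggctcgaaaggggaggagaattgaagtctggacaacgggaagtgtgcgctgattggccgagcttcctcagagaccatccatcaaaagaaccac

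Among the p53 targets, Gdf15, a secreted cytokine of the TGF-beta family that signals stress and suppresses appetite, had a scaled signal of 15.1 in ob/ob and 32.1 in WT cells. The difference was -1.09 or 2.13-fold lower (chromosome 8, 73153293 to 73153352, mm9). Phlda3, a p53-induced inhibitor of Akt membrane binding, had scaled signals of 31.4 in ob/ob and 64.9 in WT cells, 2.07-fold lower (chromosome 1, 137665642 to 137665701). Trp53inp1, which promotes p53 activity and autophagy, was measured by 2 probes. They gave scaled signals of 10.8 in ob/ob and 21.2 in WT cells, a difference of -0.97, and of 0.324 in ob/ob and 0.620 in WT cells, a difference of -0.94. The Trp53inp1 probes lie 8644 bases apart on chromosome 4 (11101174 to 11101233 and 11092530 to 11092589, mm9, plus strand) and differed by 0.03, the closest of the 4 pairs of measured probes.

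Mdm2, the ubiquitin ligase that marks p53 for breakdown, had scaled signals of 37.3 in ob/ob and 60.7 in WT cells, a difference of -0.70 or 1.63-fold lower (chromosome 10, 117126010 to 117126069, mm9). Ccng1, cyclin G1, which recruits a phosphatase to Mdm2, had 2.25 in ob/ob and 3.25 in WT cells, a difference of -0.53 (chromosome 11, 40562427 to 40562486). Both lay within 2-fold, with 9.09% of all genes at least 1.5-fold lower and Mdm2 among them. For Ccng1 the processed intensities before scaling were 3220 in ob/ob and 3212 in WT cells, so its difference was 0.003 without scaling, the only other setting of 10 in which it was not negative.

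Bright genes had lower differences than dim genes on these arrays, and 6 of the 10 genes were among the brightest 20%. In that 20% (3629 genes) the median difference was -0.31 with 1.82% at least 2-fold lower and 0.744% higher. Of the 6 genes, 3 were lower (Cdkn2b, Phlda3 and Gdf15) and 0 higher. After each difference was centred on the curve of difference against signal level, the values were -1.36 for Cdkn2a, -0.82 for Cdkn2b, -0.77 for Gdf15, -0.69 for Trp53inp1, -0.66 for Phlda3, -0.39 for Ccng1 and -0.31 for Mdm2. Centred values were -0.09 for Cdkn2c, 0.26 for Cdkn1a and 0.67 for Cdkn1b. The count at least 2-fold lower was then 1 of 10, Cdkn2a, with 1.73% lower and 6.16% higher among all genes. In rank, the centred value of Cdkn2a stood at the 0.706 percentile of all genes, Cdkn2b at 2.64, Gdf15 at 3.14, Trp53inp1 at 3.95, Phlda3 at 4.23, Ccng1 at 11.3 and Mdm2 at 15.4.

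**Figure D3:**
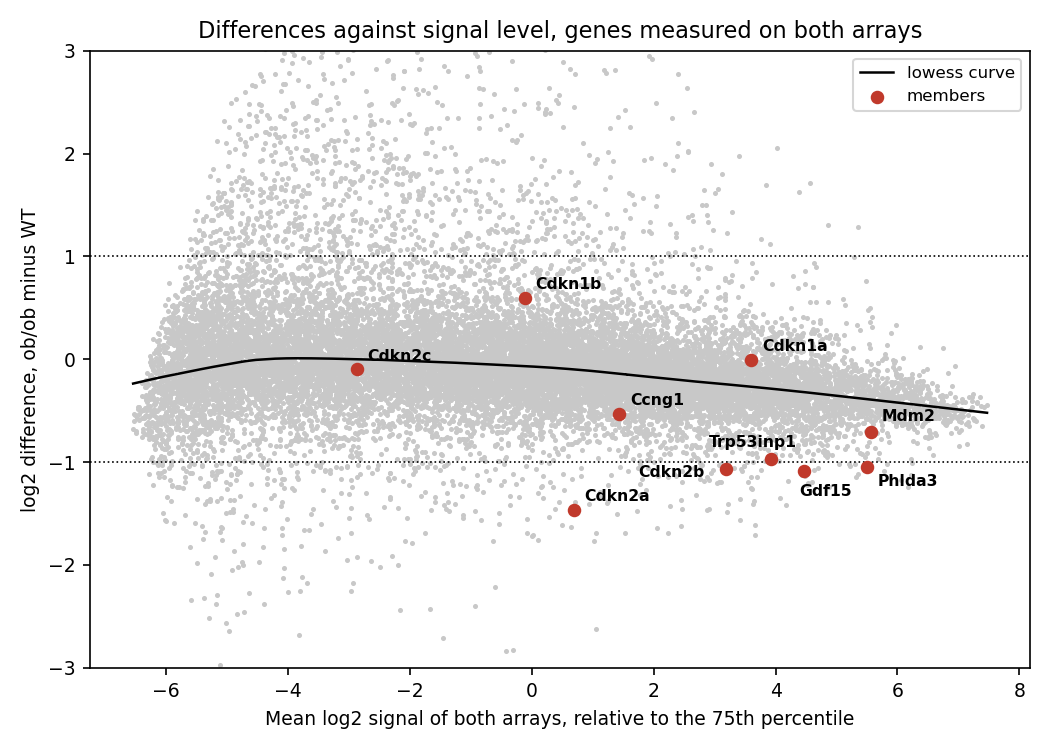
Log2 difference, ob/ob minus WT, against the mean log2 signal of both arrays for 18143 genes (grey), with the 10 genes in red, the lowess curve in black and 2-fold as dotted lines; 98 genes lie beyond the axis limit of 3. The curve bends down to -0.52 at the bright end, and Cdkn2a, Cdkn2b, Gdf15, Trp53inp1 and Phlda3 lie below it by 0.66 or more.

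The other genes of the p53 response mostly lay closer to the all-gene median. Of 34 further p53 targets, 33 were measured on both arrays, with 2 higher by 2-fold or more, 0 lower, and a median of -0.17 beside -0.12 for all genes. Negative differences were found for 24 of the 33, down to -0.84, so their range overlaps the -1.09 to -0.53 of the 5 p53 targets examined without Cdkn1a. After centring on the signal level, the medians were -0.11 for the 33 and -0.66 for those 5. The 2 higher were Dram1, a lysosomal protein of autophagy, with scaled signals of 0.135 in ob/ob and 0.0266 in WT cells (2.34), and Cyfip2, a subunit of the actin regulator WAVE (1.42). Their WT intensities, 26.3 for Dram1 and 17.6 for Cyfip2, lay near 12.3, the dimmest measured signal of the WT array. The sizes of both differences are therefore uncertain. With normexp and the 75th percentile 0 of the 33 were higher and 3 lower, and with normexp and quantile normalization 0 were higher and 0 lower. Perp, a desmosome-associated apoptosis effector, was measured in ob/ob cells only and was at least 4.28-fold brighter there. Cell death genes of the response lay on both sides of 0: Bax differed by -0.26, Bbc3, which encodes Puma, by -0.40, Pmaip1, which encodes Noxa, by 0.69 and the death receptor Fas by 0.09. Zmat3 at -0.55 and Sesn2 at -0.56 lay near Ccng1. Trp53 itself had scaled signals of 0.397 in ob/ob and 0.597 in WT cells (-0.59), the Mdm2 partner Mdm4 differed by 0.03 and the p53-directed phosphatase Ppm1d by -0.27. Of the 17 measured genes of the p53 family and its regulators, 0 passed 2-fold in either direction.

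Downstream of the inhibitors, no measured gene of the G1 machinery passed 2-fold in either direction, of 13 measured among 16. Cyclin D1, Ccnd1, the partner of CDK4, had scaled signals of 1.21 in ob/ob and 0.686 in WT cells (0.82), and Cdk2 differed by 0.46. Cdk4 itself was at -0.56 by its brightest probe and at -0.06 by the probe with the least negative value. Rb1, the target of CDK4, was at -0.43 and E2f3 at -0.48, Ccnd2 was at 0.08, Ccnd3 at -0.27, Ccne1 at -0.08, E2f1 at -0.19, Rbl1 at 0.28, Rbl2 at -0.04, Skp2 at 0.16 and Cks1b at 0.26. Cdk6 and E2f2 were measured in ob/ob cells only, at least 1.16-fold and 1.07-fold brighter there, and Ccne2 in neither. More spots passed the background limit on the ob/ob array (64.8%) than on the WT array (58.6%). No gene of any list was measured in WT cells only. Of the remaining CDK inhibitors Cdkn1c, also of the CIP/KIP family, differed by 0.20 and Cdkn2d, also of the INK4 family, by -0.20. Cdkn3, measured in ob/ob cells only, was at least 1.14-fold brighter there. Proliferation genes gave 0 of 20 beyond 2-fold (median -0.05): Mki67 had scaled signals of 0.0986 in ob/ob and 0.0630 in WT cells (0.65) by its brightest probe and a difference of 1.73 by its other measured probe, Pcna differed by -0.29, and Top2a was below the background limit on both arrays. With normexp background correction and the 75th percentile, 4 of the 20 were lower (median -0.57), and with the mean over measured probes 1 was higher.

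Gdf15 is also a known target of the integrated stress response, in which Atf4 and Ddit3, the gene of Chop, act on stress of protein synthesis. Of 13 measured genes of that response, 1 was at least 2-fold lower and 0 higher, with a median of -0.49. After centring on the signal level 0 were lower and the median was -0.32. The 1 was Asns, asparagine synthetase, with scaled signals of 4.69 in ob/ob and 10.7 in WT cells (-1.18, and -0.96 after centring). Ddit3 was at -0.68, Ppp1r15a at -0.66, Atf5 at -0.64, Cebpg at -0.52, Atf4 at -0.49 (0.006 after centring) and Chac1 at -0.49, while Cebpb was at -0.05, Phgdh at -0.06, Trib3 at 0.08, Psat1 at 0.22 and Atf3 at 0.39. Sesn2, given above, also belongs to this list. Vldlr was measured in ob/ob cells only (at least 1.34-fold brighter), as was Fgf21, for which no fold can be given.

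Secreted and nuclear genes often measured beside Cdkn2a in senescent cells numbered 20. Of these, 9 were 2-fold or more higher in ob/ob cells and 0 lower (median 0.70). The largest differences were those of Il1b at 6.07, Il6 at 3.08 and Igfbp5 at 2.49. In WT cells the intensities of Il1b (16.8) and Igfbp5 (27.2) lay near 12.3, the dimmest measured signal of that array, so the sizes of both differences are uncertain. With normexp and the 75th percentile 6 of the 20 were higher and 1 lower. Lmnb1, lamin B1, known to be lost in senescent cells, was at -0.92. Il1b and Il6 are also macrophage cytokines, and macrophage markers, given below, were higher in the same bulk culture. Which cells gave the differences of this list was not tested.

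**Figure D4:**
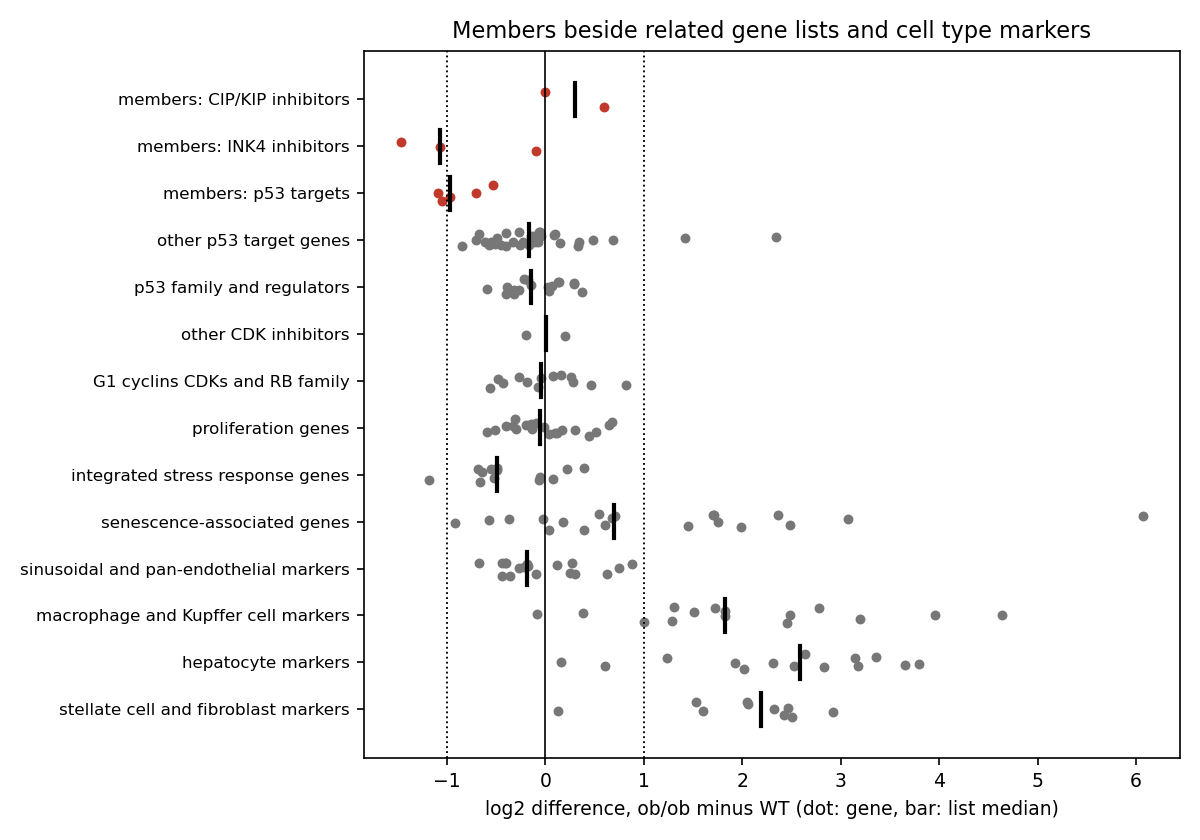
Log2 difference, ob/ob minus WT, of every gene measured on both arrays in the named lists (dots) with list medians (black bars) and 2-fold as dotted lines; the 10 genes are in red. Without Cdkn1a, the p53 targets examined have a median of -0.97, beside -0.17 for other p53 targets. The 3 INK4 genes examined have a median of -1.07, while Cdkn2d, an INK4 gene plotted with the other CDK inhibitors, is at -0.20. Medians are 1.82 to 2.58 for macrophage, hepatocyte and stellate cell markers.

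Markers of other liver cells were higher in the ob/ob culture, beside every value above. Of macrophage markers 13 of 15 were at least 2-fold higher (median 1.82), with summed scaled signals of 164 in ob/ob and 59.3 in WT cells. Of hepatocyte markers 12 of 14 were higher (median 2.58, summed scaled signals 52.5 and 9.25 in ob/ob and WT cells), and of measured stellate cell and fibroblast markers 9 of 10 (median 2.19, summed 36.9 and 9.001 in ob/ob and WT cells). With normexp and the 75th percentile the stellate cell count was 3 of 10 (median 0.66), and 9 hepatocyte markers were higher and 2 lower. Cholangiocyte markers gave 2 of 2 measured on both arrays higher, and 4 more were measured in ob/ob cells only, at least 1.01-fold to 1.87-fold brighter there. Of lymphocyte markers 3 were measured on both arrays, all within 2-fold, and 3 in ob/ob cells only: Gzmb at least 8.80-fold, Cd3d 6.44-fold and Cd3g 2.01-fold brighter there. Of neutrophil markers 4 were measured on both arrays, with Mpo at -1.32 and Elane at -1.01 lower, and 3 in ob/ob cells only: Mmp8 at least 9.30-fold, S100a9 5.77-fold and S100a8 2.77-fold brighter there. All 18 endothelial markers were measured on both arrays and lay within 2-fold (median -0.18, summed 169 and 209 in ob/ob and WT cells). Of these 11 had negative and 7 positive differences, from -0.68 for Oit3 to 0.88 for Tek. The sinusoidal marker Stab2 had scaled signals of 6.27 in ob/ob and 7.11 in WT cells, and Gpr182 of 4.29 in ob/ob and 2.54 in WT cells. Immediate early genes, which respond to handling, had 2 of 10 higher (median 0.41): Junb at 1.40 and Ier2 at 1.07, beside Egr1 at 0.70, Fosb at 0.57, Fos at 0.42, Atf3 at 0.39, Nr4a1 at 0.12, Dusp1 at -0.05, Ier3 at -0.27 and Jun at -0.53. The part of these cells in the values of the 10 genes was not tested.

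**Figure D5:**
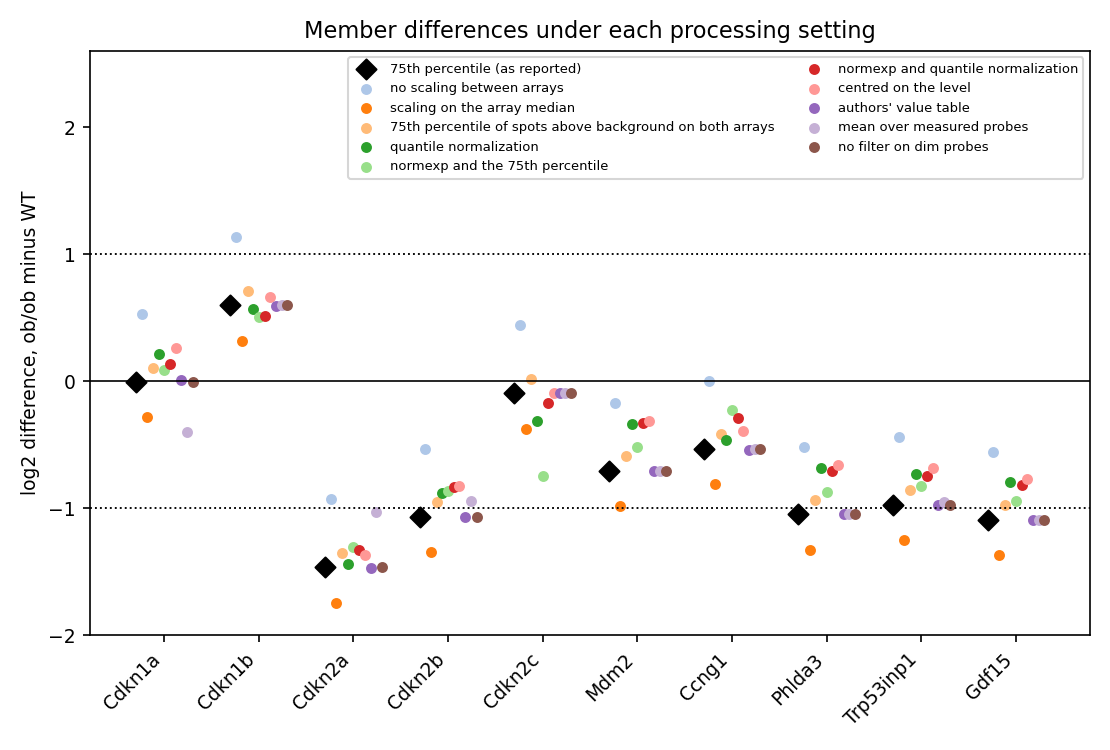
Log2 difference, ob/ob minus WT, of each of the 10 genes under the reported scaling (black diamonds) and 10 other settings (coloured dots), with 2-fold as dotted lines. Cdkn2a, Cdkn2b, Mdm2, Phlda3, Trp53inp1 and Gdf15 stay below 0 and Cdkn1b above 0 in all of them, while Cdkn1a and Cdkn2c lie on both sides and Ccng1 reaches 0.003 without scaling.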

How the data were processed

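Total RNA labelled with Cy3 was read on 2 single-colour Agilent arrays (design mm9 coordinates), 1 for ob/ob and 1 for WT. The deposited intensity values came from Agilent Feature Extraction 11.0.1.1 (named in the submitters' processing notes), with spatial and multiplicative detrending and surrogates for dim spots, per the file headers. They are not scaled between arrays. The authors' deposited value table is a ratio of that intensity to a constant of the array (1433 for ob/ob, 989 for WT, medians of its columns 0.6475 and 0.614), so its scale is linear and it is not centred on genes. Deposited per-spot flags, per the file headers, marked outliers, which were dropped, and spots well above background (64.8% on the ob/ob and 58.6% on the WT array). No spot was saturated, and local background at the spots of the 10 genes was 58 to 66 on the ob/ob and 59 to 66 on the WT array. From the intensities log2 of the signal over the 75th percentile of non-control spots was computed, spots of a probe averaged, and probes with more than 50% of spots well above background taken as measured. Names of other genes were updated by accession through RefSeq (26041 probes). A gene measured on 1 array has a bound only, against the higher of the dimmest measured signal and its own. With 1 array per genotype no test applies; precision is limited by having 2 arrays. Steps were tested on simulated data whose changes were larger than those of the 10 genes, which does not check calls near 2-fold. Python 3.11.15 with pandas 2.3.3 and statsmodels 0.14.6 (lowess, span 0.3) and R 4.3.3 with limma 3.58.1 (normexp, offset 50) were used. The 10 genes, the lists and the settings were chosen with earlier results of these data known, and 1 setting, no scaling between arrays, was added after seeing the files. All probes of the 10 genes are given; from lists of more than 16 genes, up to 3 with the largest differences past 2-fold on each side, up to 2 bounds and a few fixed genes are named, of which 1 is not reported here. No genes are named for likeness of pattern, which 2 arrays do not define.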

Additional observations from a re-analysis of the deposited data

How the results depend on the processing

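The direction of the median over the 10 genes held under all 10 other settings, from -1.12 to -0.30, but the count at least 2-fold lower, 4 as reported, depended on the scaling. It was 5 with scaling on the array median (median difference of the 10 genes -1.12), with 5.38% of all genes lower. It was 1, Cdkn2a, with the 75th percentile of spots above background on both arrays, with normexp before the 75th percentile, with quantile normalization (median -0.57), with normexp and quantile normalization (median -0.52) and after centring on the level (median -0.52). In these settings 0.717% to 21.1% of all genes were lower. Without scaling between arrays, the 1 setting added after seeing the files, the count lower was 0 with 1 higher, Cdkn1b, and a median of -0.30. Among all genes 0.562% were then lower and 12.2% higher. Scaling shifts every gene alike: the all-gene median was -0.12 as reported, -0.40 with the array median and 0.41 without scaling, while the median of the 10 genes minus the all-gene median was by construction -0.72 in all 3. It was -0.54 after centring, -0.50 with normexp before the 75th percentile, -0.47 with quantile normalization and -0.45 with normexp before quantile normalization. With a limit of 1.5-fold, 6 genes were lower and 1, Cdkn1b, higher, against 9.09% lower and 9.82% higher among all genes. The authors' value table gave 4 lower (2.29% of all genes), the mean over measured probes 3 (2.14% of all genes), with Cdkn2a at -1.03 and Cdkn1a at -0.40. With no filter on dim probes the count was 4, with 5.13% of all genes lower. Among all genes the count lower was 976 with the array median, 3828 with normexp before the 75th percentile and 130 with normexp before quantile normalization, against 415 as reported, and the counts higher were 768, 369 and 511 against 1057. Of the 100 differences of single genes under other settings, 57 moved by less than the error-model SD and 43 by more, and 0 of those at least 2-fold lower changed sign. Cdkn2a was at least 2-fold lower in 9 of 10 settings, Gdf15 and Phlda3 in 4 and Cdkn2b in 3. The settings are not independent checks. The authors' value table holds the same intensities over nearly the same constants as the reported scaling. Leaving out the dim-probe filter changed no value of the 10 genes, and averaging probes cannot move a gene with 1 measured probe, such as Gdf15 or Phlda3. List medians that took both signs were those of other p53 targets (-0.45 to 0.37), p53 regulators (-0.43 to 0.38), other CDK inhibitors (-0.28 to 0.54), G1 genes (-0.32 to 0.49), proliferation genes (-0.57 to 0.48), stress response genes (-0.77 to 0.04), endothelial markers (-0.46 to 0.35) and lymphocyte markers (-0.61 to 0.70). The stellate cell marker median was 0.66 to 2.72 and that of hepatocyte markers 1.71 to 3.12. Why values moved was not tested. No paired analysis was possible because each genotype has 1 array.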
